A study of Mus musculus with 12 samples.

Results

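The genes described here are the clotting and clot-dissolving genes of the liver, without the serpin inhibitors. The list was drawn up by name from the known biology of coagulation and fibrinolysis, and its rule uses no measured value. It was still chosen with earlier results of these data known, so it is not independent of them. It holds 39 genes of the 31114 genes in the data, and 31 of them were among the 8846 genes with enough reads to be tested. The members fall into 7 roles: 11 procoagulant proteases and cofactors, 5 fibrinogen and crosslinking genes, 3 contact system genes, 9 anticoagulants, 4 fibrinolysis genes, 6 genes of the vitamin K cycle and of protein processing and secretion, and 1 thrombin receptor gene.

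RNA-seq was made from the livers of 12 hFIX-R29X mice, a hemophilia B strain in which the mouse F9 gene is deleted and a human factor IX minigene with the R29X nonsense codon is carried instead, under the human transthyretin promoter, which acts mainly in hepatocytes. All 12 mice carried both alleles, were 8 to 14 weeks old and got 6 doses at intervals of 5 days, and livers were taken 48 h after the last dose. The 3 groups of 4 mice (2 females and 2 males each) received DPBS (buffer), Control-GalNAc-ASO at 15 mg/kg or Upf3b-GalNAc-ASO at 10 mg/kg. These are called DPBS, Control-ASO and Upf3b-ASO livers below, and replicates 1 and 2 are female and replicates 3 and 4 male. An antisense oligonucleotide (ASO) is a short synthetic DNA-like strand that pairs with an RNA and has it cut, and GalNAc is a sugar that takes it into hepatocytes. Upf3b codes for a factor of nonsense-mediated decay (NMD), the pathway that destroys mRNAs with an early stop codon. The 2 ASO doses differed, so Control-ASO is not matched in dose to Upf3b-ASO.

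Blood clots through a chain of proteases that hepatocytes make as inactive precursors. Tissue factor with factor VII starts the chain, factors IX and X with their cofactors VIII and V carry it to thrombin, and thrombin turns fibrinogen into fibrin. Several of the proteases work only after vitamin K dependent carboxylation, plasmin dissolves the clot, and most of these proteins are made in the liver, while von Willebrand factor and thrombomodulin come mainly from endothelium.

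The sequences of the ASOs are shown because they made the groups. They are the letters listed by the study for its Upf3b ASO and for its ASO with no target, each of 16 bases, written 5′ to 3′ and in capitals throughout because the whole strand is meant to pair. They are listed for the ASOs without GalNAc.
Upf3b ASO: GGATATAGATGTAACG
Control ASO: GGCCAATACGCCGTCA
The reverse complement of the Upf3b ASO was found without mismatch in 1 of 31001 genes searched in spliced transcripts, Upf3b itself, at chrX:37091973-37091988 (GRCm38, minus strand), in exon 10 of 10 and within the 3′ UTR. No member held either target with fewer than 3 mismatches. At 4 or fewer mismatches to the Upf3b ASO target there were 3 of 39 members, F5, Fgb and Pzp, beside 6.92% of all genes. At the same limit of 4 the control ASO target had 3 of 39 members as well, F11, Pzp and Tfpi, beside 3.82% of all genes. At 3 or fewer mismatches to the control ASO target there were F11 and Tfpi, beside 0.281% of all genes. No member was that close to the Upf3b ASO target, beside 0.5% of all genes. The target site in Upf3b and the closest sites in members are shown as RNA-sense DNA, with the bases that differ from the ASO target in capitals.
Upf3b: cgttacatctatatcc
F5 (Upf3b ASO): cTttaGatctTtatcA
Fgb (Upf3b ASO): TgttacatcCatCAcc
Pzp (Upf3b ASO): cCtAacatctatGtTc
F11 (control ASO): tgacAgcgtGGtggcc
Tfpi (control ASO): tgaAggcAtTttggcc
The F5 site lay at chr1:164193244-164193259 (plus strand, coding, exon 13 of 25), the Fgb site at chr3:83040776-83040791 (minus strand, 3′ UTR, exon 8 of 8), the Pzp site at chr6:128491568-128491583 (minus strand, coding, exon 24 of 36), the F11 site at chr8:45249600-45249615 (minus strand, coding, exon 7 of 15) and the Tfpi site at chr2:84476751-84476766 (minus strand, 5′ UTR, exon 1 of 8). The Tfpi site is in the transcript Tfpi-202, which had no more than 10.9 estimated counts in any liver and about 0 in 11 of 12. Introns were not searched.

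The files held 13277892 to 17054313 estimated counts per Upf3b-ASO liver and 17642996 to 20387682 per liver of the other groups. Levels are given below as CPM (estimated counts scaled to a common library size by the TMM method) or, for comparisons between genes, as TPM, the transcript share scaled per length. Upf3b lay between 0.651 and 1.58 CPM in the Upf3b-ASO livers and between 7.93 and 13.4 CPM in the other 8, so the Upf3b-ASO livers matched their label. It overlapped between DPBS livers (9.38 to 13.4 CPM) and Control-ASO livers (7.93 to 12 CPM), so it is no check of those labels. Hepatocyte markers were strong in every liver (8 of 8 tested, with a summed level of 47200 to 98800 CPM), and none of 6 platelet markers had enough reads to be tested. Control-ASO replicate 3 stood apart: its 12 acute phase genes summed to 23800 CPM and those of the other 11 livers to between 1950 and 2550 CPM. Control-ASO replicate 1 held 1640 CPM of 6 erythroid genes and 20.4 CPM of platelet genes, beside 117 to 354 CPM and 2.78 to 7.57 CPM elsewhere. In whole liver, fewer cells of a type and less RNA per cell cannot be told apart.

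In the DPBS livers the members spanned a wide range of levels. Fga, Fgg and Fgb, which code for the fibrinogen chains, were at 2180 ± 864, 2000 ± 754 and 1200 ± 503 TPM (SD, n = 4). They stood near Apoh (apolipoprotein H, which binds phospholipid) at 1880 ± 550 TPM, Pzp (a protease inhibitor of the macroglobulin family) at 1710 ± 316 TPM and Kng1 (kininogen) at 1560 ± 456 TPM. These 6 did not differ from their neighbours in the order by more than their SDs. F2 (prothrombin) at 930 ± 211 TPM and Plg (plasminogen) at 723 ± 215 TPM came next, and F12, F10, Proc, Hrg, Cpb2 and Kng2 lay between 232 and 306 TPM. The cofactor genes were lower, with F5 at 107 ± 15.9 TPM and F8 at 15.8 ± 2.13 TPM. F9 was at 3.65 ± 2.07 TPM, below every other tested member.

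The 8 members that did not reach the filter (at least 5 TPM in 4 livers) were F3 (tissue factor), Vwf, F13a1 (the catalytic chain of factor XIII), Klkb1 (prekallikrein), Thbd (thrombomodulin), Procr (endothelial protein C receptor), Plat and Plau (the plasminogen activators). Vwf lay between 4.23 and 8.51 CPM over all livers, F3 between 2.51 and 7.78, Plau between 1.3 and 3.51, Procr between 0.237 and 1.25 and Plat between 0.237 and 2.02. F13a1 lay between 0.0543 and 2.08 CPM, with its highest value in Control-ASO replicate 1. Thbd lay between 4.59 and 9.07 CPM in 11 livers and at 90 CPM in Control-ASO replicate 3. The low Klkb1 level (0.885 to 5.88 CPM) rested on 1 transcript listed with 2753 bases in the files and 5249 in the annotation used here, so it is not read as the level of the gene.

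The main comparison asked what lowering Upf3b did to these genes, with Control-ASO as the reference. Mcfd2 rose, and F5, F7, F12, Kng2 and Ggcx fell. The falls were between 24.6% (Ggcx) and 34.0% (F5), and the rise of Mcfd2 was 35.2%. By edgeR's quasi-likelihood test with Benjamini-Hochberg adjustment, 1 of 31 tested members rose (3.23%) where 4.34% of all genes rose, and 5 of 31 fell (16.1%) where 5.95% of all genes fell. The median log2 fold change of the 31 was -0.21, beside -0.02 for all genes tested. Without Control-ASO replicate 3 these medians were -0.11 and 0.01. For 6 members the ranges of the 4 Upf3b-ASO and the 4 Control-ASO livers were apart (F5, F12, Kng2 and Pros1 lower, F11 and Mcfd2 higher), which is 19.4% of the members beside 15.4% of all genes.

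**Figure D1:**
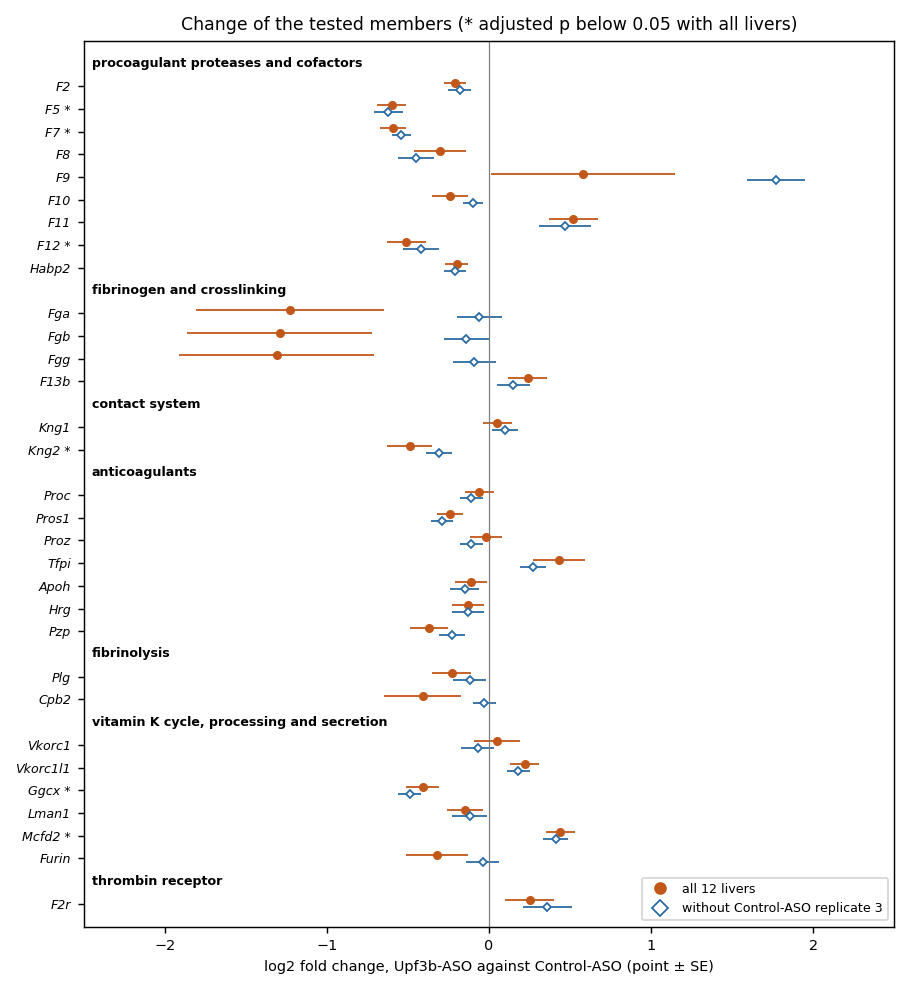
Log2 fold change between Upf3b-ASO and Control-ASO livers for the 31 tested members, by role (points with SE; filled circles use all 12 livers, open diamonds leave out Control-ASO replicate 3). F5, F7, F12, Kng2 and Ggcx lie left of 0 and Mcfd2 right of it in both fits, while the fibrinogen genes move from between -1.31 and -1.23 to between -0.14 and -0.06, and F9 from 0.58 to 1.77.

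Leaving out Control-ASO replicate 3, a choice made after its values were seen, raised the number of called members from 6 to 12. F9, F11, Tfpi and Mcfd2 were then higher (4 of 31, where 11% of all genes were higher) and F5, F7, F8, F12, Habp2, Kng2, Pros1 and Ggcx lower (8 of 31, where 13.5% of all genes were lower). F9 counts among them only because the filter on low values let it in through the Upf3b-ASO livers. Leaving out Upf3b-ASO replicate 2, 3 or 4 lowered it to 3 each. Read on TPM scaled to an equal sum, on which the median log2 fold change of all genes was 0.15 in place of -0.02, the calls were 3 higher (F11, Vkorc1l1, Mcfd2) and 1 lower (F7).

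F5, on chr1:164151838-164220277 (GRCm38, as for all positions here), codes for factor V, the cofactor of factor X. Its Control-ASO livers were at 719, 816, 655 and 703 CPM and its Upf3b-ASO livers at 515, 512, 465 and 419 CPM. Every Upf3b-ASO liver was below every Control-ASO liver and below every DPBS liver (696, 705, 729 and 601 CPM). This came to a log2 fold change of -0.60 with an SE of 0.09 (adjusted p = 0.0026, edgeR) against Control-ASO and -0.52 ± 0.09 (edgeR adjusted p = 0.0057) against DPBS. The call against Control-ASO held in 11 of 12 alternative settings (adjusted p between 2.1e-10 and 0.05) and without each of the 12 livers.

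F7, on chr8:13026034-13035809, codes for the protease that tissue factor binds. Its Control-ASO livers were at 124, 136, 95.4 and 78.1 CPM and its Upf3b-ASO livers at 85.7, 85.2, 58 and 58.1 CPM. The ranges overlapped across the sexes, with the female livers of both groups higher, but within each sex every Upf3b-ASO liver was below every Control-ASO liver. The log2 fold change, fitted with sex, was -0.59 ± 0.08 (edgeR adjusted p = 0.0011) against Control-ASO and -0.38 ± 0.08 (edgeR adjusted p = 0.012) against DPBS, whose livers were at 109, 113, 71 and 80.4 CPM. The call was lost in 1 of 12 alternative settings against Control-ASO (without the sex term, adjusted p = 0.13) and in 5 of 12 against DPBS (adjusted p up to 0.39), and held without each single liver. Its neighbours on the chromosome, F10 (the protease that makes thrombin) and Proz (protein Z, cofactor of a factor X inhibitor), had log2 fold changes of -0.24 ± 0.11 (edgeR adjusted p = 0.18) and -0.02 ± 0.10 (edgeR adjusted p = 0.91).

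F12 codes for factor XII, which starts the contact pathway (chr13:55417958-55426793). It was at 534, 546, 584 and 515 CPM in Control-ASO livers and at 468, 439, 311 and 335 CPM in Upf3b-ASO livers, with no overlap. The DPBS livers, at 511, 440, 454 and 378 CPM, were all below the Control-ASO livers and overlapped the Upf3b-ASO livers. The log2 fold change was -0.51 ± 0.12 (edgeR adjusted p = 0.024) against Control-ASO and -0.21 ± 0.12 (edgeR adjusted p = 0.33) against DPBS. Against Control-ASO, 6 of 12 alternative settings and 9 of 12 fits that each left out 1 liver kept the call, and it was lost without Upf3b-ASO replicate 2, 3 or 4 (edgeR adjusted p between 0.05 and 0.093).

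F11 codes for factor XI, the protease that activates factor IX (chr8:45241174-45262031). It was at 62.9, 65.6, 55.8 and 71.7 CPM in the Upf3b-ASO livers, above all Control-ASO livers (41.9, 50.1, 36.9 and 50.1 CPM) and all DPBS livers (44.7, 53.8, 33.6 and 32.1 CPM). The log2 difference passed the test against DPBS (0.66 ± 0.15, edgeR adjusted p = 0.023) and was 0.52 ± 0.15 (edgeR adjusted p = 0.057) against Control-ASO. The latter was, with Control-ASO replicate 3 left out, 0.47 ± 0.16 (edgeR adjusted p = 0.048). The call against DPBS was lost without DPBS replicate 1, 3 or 4 or Upf3b-ASO replicate 2 or 4 (edgeR adjusted p up to 0.084). Among the procoagulant genes F11 thus stood on the other side of 0 from F5, F7 and F12.

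The remaining procoagulant members did not pass against Control-ASO with all livers. F2 was -0.21 ± 0.07 (edgeR adjusted p = 0.096), Habp2 (a hyaluronan-binding plasma protease) was -0.20 ± 0.07 (edgeR adjusted p = 0.085), and F8 (cofactor of factor IX) was -0.30 ± 0.16 (edgeR adjusted p = 0.24), each on the log2 scale. With that liver of the Control-ASO group (replicate 3) left out, F8 moved to -0.45 ± 0.11 (edgeR adjusted p = 0.014) and Habp2 to -0.21 ± 0.07 (edgeR adjusted p = 0.044).

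**Figure D2:**
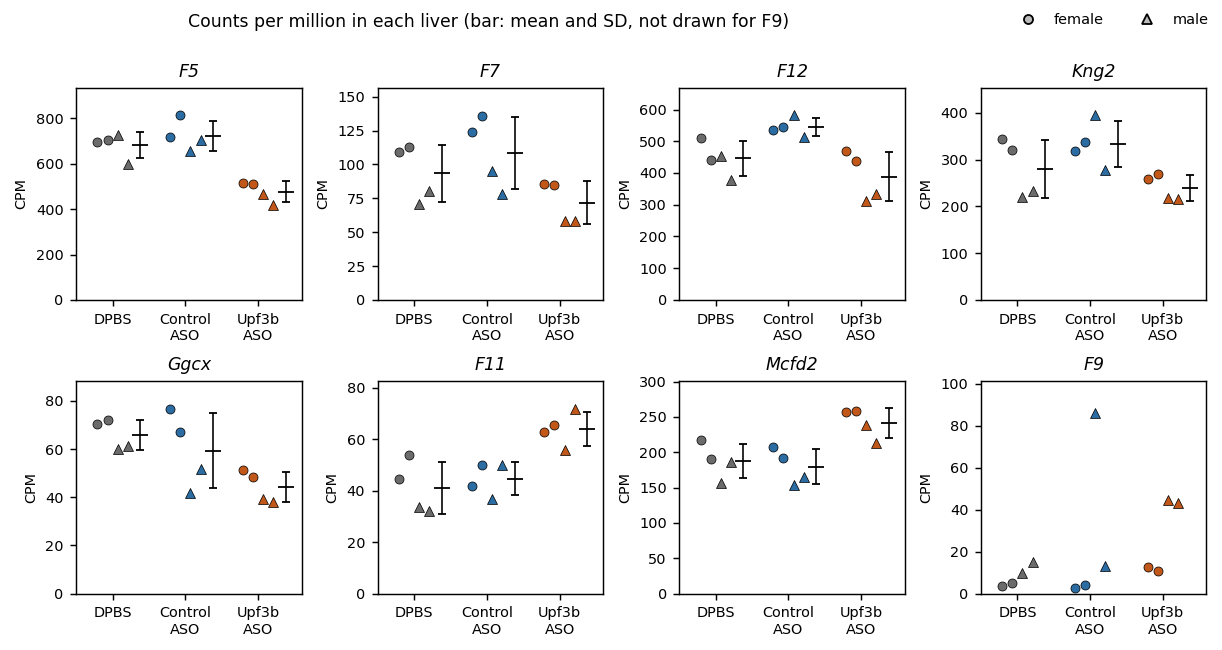
TMM-scaled CPM in each liver for the members called in a comparison with Upf3b-ASO livers and for F9 (circles are females, triangles males, bars show the mean and SD of 4 livers and are not drawn for F9). F5 and F12 are lower in every Upf3b-ASO liver than in any Control-ASO liver, F11 and Mcfd2 are higher, and F9 is highest in Control-ASO replicate 3 at 86.1 CPM.

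Reads were assigned to F9 (chrX:59999464-60030759, 1 transcript) although the mouse gene is deleted in the strain. The estimated counts were 71, 104, 168 and 288 in the DPBS livers, 52, 71, 1195 and 225 in the Control-ASO livers and 179, 203, 671 and 655 in the Upf3b-ASO livers. As CPM these were 3.69, 5.22, 9.95 and 15.3 (DPBS), 2.84, 4.02, 86.1 and 13.4 (Control-ASO) and 12.8, 11, 44.7 and 43.4 (Upf3b-ASO). Both female Upf3b-ASO livers were above all 4 other females, and both male Upf3b-ASO livers above all other males except Control-ASO replicate 3.

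With all livers the F9 difference did not pass, at 0.58 ± 0.57 on the log2 scale (edgeR adjusted p = 0.53) against Control-ASO and 1.61 ± 0.59 (edgeR adjusted p = 0.12) against DPBS. Exact two-sided permutation tests over livers on log2(CPM + 1) gave p = 0.4 and p = 0.11, where the smallest p that 4 against 4 allows is 0.029. These tests took no account of sex, so the difference of F9 between males and females is part of the spread they measure. With Control-ASO replicate 3 left out, the F9 value against Control-ASO became 1.77 ± 0.18. All 4 Upf3b-ASO livers and only 3 of the others reached 5 TPM for F9, so F9 passed the filter through the group where it is high. The F9 p-values above, and its calls without Control-ASO replicate 3, are therefore a description and no test. On the TPM scale F9 was at 6.07, 5.5, 18.2 and 16.3 in the Upf3b-ASO livers and between 1.38 and 6.52 in 7 of the other 8, with 27.7 in Control-ASO replicate 3. The files were quantified on mouse transcripts alone, and whether the reads came from the human minigene or from remains of the mouse gene was not tested.

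The fibrinogen genes Fga, Fgb and Fgg lie next to each other on chromosome 3 (83026076 to 83033627, 83040141 to 83049863 and 83007724 to 83015049) and were all highest in the same liver. In Control-ASO replicate 3 they were at 19800, 20800 and 16100 CPM, and in the other 11 livers at 2580 to 4630, 2680 to 4790 and 1950 to 3270 CPM. That liver gave 5.87% of its counts to the 39 members, beside 2.28% to 3.29% in the others. Fitted with all livers, the log2 fold changes against Control-ASO were -1.23 ± 0.58, -1.29 ± 0.57 and -1.31 ± 0.60 (edgeR adjusted p = 0.19, 0.17 and 0.18). Without that liver they were -0.06 ± 0.14, -0.14 ± 0.14 and -0.09 ± 0.13 (edgeR adjusted p = 0.78, 0.52 and 0.67). F13b, the carrier chain of factor XIII, was at 0.24 ± 0.12 (edgeR adjusted p = 0.23) with all livers.

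Since these genes stood out together in that liver, the 250 bases before the start of Fgb (chr3:83049864-83050113, minus strand) and Fgg (chr3:83007474-83007723, plus strand) are shown from RefSeq (GRCm38.p6), read along the gene. Matches on either strand to CTGGGAA, a motif known from acute phase genes, and to TTNNGNAA, a motif of the C/EBP factors, are in capitals.
Fgb: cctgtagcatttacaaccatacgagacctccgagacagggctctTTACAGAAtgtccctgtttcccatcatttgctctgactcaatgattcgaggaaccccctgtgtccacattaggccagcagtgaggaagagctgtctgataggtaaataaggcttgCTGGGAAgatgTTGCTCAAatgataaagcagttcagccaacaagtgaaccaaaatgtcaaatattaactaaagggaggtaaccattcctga
Fgg: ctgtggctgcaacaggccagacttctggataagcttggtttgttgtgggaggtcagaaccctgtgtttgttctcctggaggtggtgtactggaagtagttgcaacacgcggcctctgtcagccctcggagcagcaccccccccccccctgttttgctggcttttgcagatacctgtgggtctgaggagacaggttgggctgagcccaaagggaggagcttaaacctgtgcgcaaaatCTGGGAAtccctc
CTGGGAA stood 91 to 85 bases before the start of Fgb and 13 to 7 bases before that of Fgg. The window of Fga held TTNNGNAA but not CTGGGAA. The annotated Fga transcript starts inside that window, so the window is not shown and is not like those of Fgb and Fgg. Over the 31 members with a window, 4 held CTGGGAA (F9, Fgb, Fgg and Tfpi), beside 9.06% of 27025 genes, and 16 held TTNNGNAA, beside 37.0%. The HNF1 motif, searched on both strands as well, was in no member window and in 0.0629% of all. The matches describe letters only.

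**Figure D3:**
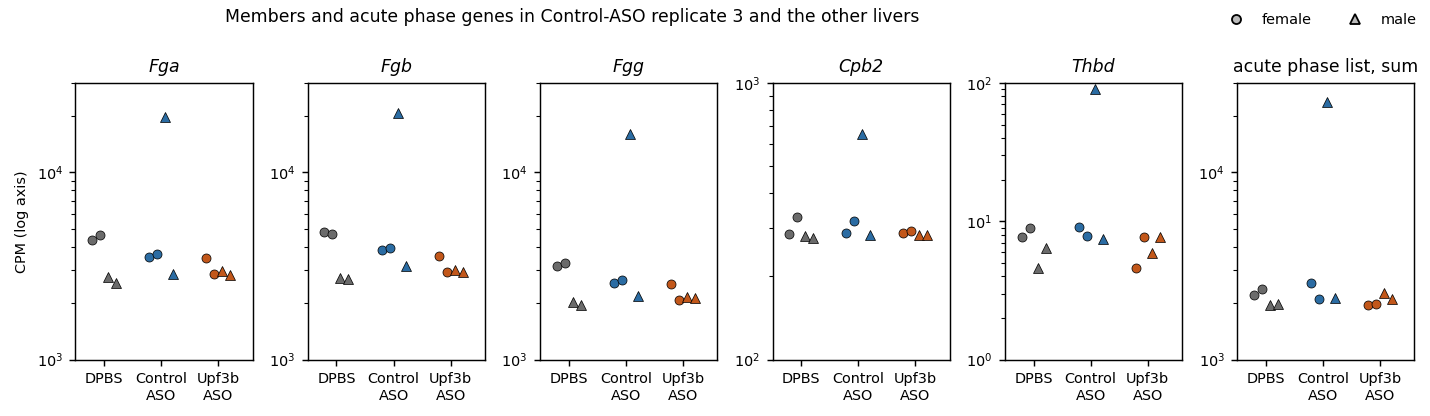
TMM-scaled CPM in each liver, on log axes, of Fga, Fgb, Fgg, Cpb2 and Thbd and of the sum over 12 acute phase genes (circles are females, triangles males). In each panel Control-ASO replicate 3 is the highest liver, with 19800 CPM of Fga, 652 CPM of Cpb2, 90 CPM of Thbd and 23800 CPM of acute phase genes.

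Of the contact system, Kng2 fell and Kng1, the other kininogen gene and its neighbour, did not pass the test. Kng2 (chr16:22985854-23029482) was at 319, 338, 396 and 277 CPM in Control-ASO livers and at 258, 269, 217 and 215 CPM in Upf3b-ASO livers, with no overlap. For Kng2 this gave, on the log2 scale, -0.49 ± 0.14 (edgeR adjusted p = 0.049) against Control-ASO and -0.21 ± 0.14 (edgeR adjusted p = 0.42) against DPBS, whose livers were at 343, 321, 220 and 232 CPM. The call held in 2 of 12 alternative settings (adjusted p between 0.0043 and 0.12) and, of the 12 fits that left out 1 liver, only in the 3 without Control-ASO replicate 1, 3 or 4 (edgeR adjusted p up to 0.14 in the others). For Kng1 it was 0.05 ± 0.09 (adjusted p = 0.79 by edgeR). The kininogen genes are similar in sequence, so the split of reads between them is uncertain.

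None of the 7 tested anticoagulants passed in either comparison by edgeR with all livers. Tfpi, the tissue factor pathway inhibitor, had the largest difference, with 11.9, 12.2, 5.77 and 9.92 CPM in Control-ASO livers and 14.9, 13.9, 12.3 and 11.9 CPM in Upf3b-ASO livers. Its lowest value was in Control-ASO replicate 3, and the groups overlapped at 11.9 to 12.2 CPM. The log2 fold change was 0.43 ± 0.16 (edgeR adjusted p = 0.10), and without that liver 0.27 ± 0.08 (edgeR adjusted p = 0.027). Pros1 (protein S, cofactor of activated protein C) was at 120, 115, 98.1 and 104 CPM in Control-ASO livers and at 96.6, 87.9, 93.9 and 90.3 CPM in Upf3b-ASO livers. Those ranges did not overlap, and its log2 fold change was -0.24 ± 0.08 (edgeR adjusted p = 0.085). At an unadjusted p under 0.05 by edgeR stood Pros1, Tfpi and Pzp of these 7, beside 28% of all genes tested. The log2 fold changes of Proc (protein C), Proz, Apoh and Hrg (histidine-rich glycoprotein) lay between -0.13 and -0.02.

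The fibrinolysis genes did not pass either. Cpb2, which codes for the inhibitor of fibrinolysis that thrombin activates, was at 287, 316, 652 and 283 CPM in Control-ASO livers and at 288, 291, 283 and 282 CPM in Upf3b-ASO livers. The Upf3b-ASO livers lay within the range of the DPBS livers (276 to 327 CPM), and Control-ASO replicate 3 was above all other livers. The log2 fold change was -0.41 ± 0.24 (edgeR adjusted p = 0.28), and without that liver -0.03 ± 0.07 (edgeR adjusted p = 0.82). Plg was at -0.23 ± 0.12 (edgeR adjusted p = 0.23).

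Among the genes that finish and export clotting factors, Mcfd2 rose and Ggcx fell. Mcfd2 (chr17:87254443-87265935) codes for the partner of Lman1 in the cargo receptor that carries factors V and VIII out of the endoplasmic reticulum. It was at 257, 258, 238 and 213 CPM in Upf3b-ASO livers, above every Control-ASO liver (207, 192, 153 and 165 CPM), and overlapped DPBS livers (217, 191, 157 and 186 CPM) in 1 liver. The rise of Mcfd2 was 0.44 ± 0.09 on the log2 scale (edgeR adjusted p = 0.011) against Control-ASO and 0.36 ± 0.09 (edgeR adjusted p = 0.026) against DPBS. For Lman1 itself the values were log2 fold changes of -0.15 ± 0.11 (edgeR adjusted p = 0.41) and -0.30 ± 0.11 (edgeR adjusted p = 0.12). Mcfd2 was called in both comparisons and Lman1 in neither, and the difference between them was not tested. The call of Mcfd2 was lost in 3 of 12 alternative settings against Control-ASO (adjusted p up to 0.077) and in 5 of 12 against DPBS (adjusted p up to 0.26). Against DPBS it was also lost without DPBS replicate 2 or 3 or Upf3b-ASO replicate 2, 3 or 4 (edgeR adjusted p up to 0.084).

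Ggcx (chr6:72414308-72430712) codes for the carboxylase that uses vitamin K to modify factors II, VII, IX and X and proteins C, S and Z. It was at 76.7, 67.2, 41.9 and 51.7 CPM in Control-ASO livers, at 70.5, 72.1, 59.9 and 61.1 CPM in DPBS livers and at 51.1, 48.3, 39.4 and 38.2 CPM in Upf3b-ASO livers. The Upf3b-ASO livers were all below the DPBS livers and overlapped the Control-ASO livers through the male replicate 3. For Ggcx this gave, on the log2 scale, -0.41 ± 0.10 (edgeR adjusted p = 0.028) against Control-ASO and -0.58 ± 0.10 (edgeR adjusted p = 0.0051) against DPBS. Against Control-ASO the call held in 4 of 12 alternative settings and in 5 of 12 fits without 1 liver. It was lost without Control-ASO replicate 1, 2 or 4 or any single Upf3b-ASO liver (edgeR adjusted p up to 0.084). Vkorc1, which recycles vitamin K, was at 0.05 ± 0.14 (edgeR adjusted p = 0.84), its relative Vkorc1l1 at 0.22 ± 0.09 (edgeR adjusted p = 0.13) and Furin, a protease that trims precursors, at -0.32 ± 0.19 (edgeR adjusted p = 0.30).

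Against DPBS, F11 and Mcfd2 rose (2 of 31, where 3.57% of all genes rose) and F5, F7 and Ggcx fell (3 of 31, where 5.36% of all genes fell), by the same edgeR test. This comparison shares the Upf3b-ASO livers with the main one, so its calls are not independent of it. Control-ASO replicate 3 is in neither of these groups, but it enters the shared estimates of the spread, of sex and of the scaling. Without it, 5 members were higher (F9, F11, Tfpi, Mcfd2 and F2r, where 13.7% of all genes were higher) and 6 lower (F5, F7, Pzp, Ggcx, Lman1 and Furin, where 15% of all genes were lower). Here too F9 passed the filter through the Upf3b-ASO livers, and its place in the count is a description.

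Between Control-ASO and DPBS, edgeR called 0 of 31 members at an adjusted p under 0.05, where 0% of all genes were called higher and 0.0113% lower. At an unadjusted p under 0.05 by edgeR there were 3 of 31 members (9.68%), F7, F12 and Vkorc1l1, beside 6.97% of all genes. At an adjusted p under 0.05, DESeq2 and limma also called 0 members. F12 was higher in every Control-ASO liver than in any DPBS liver, with a difference of 0.30 ± 0.12 on the log2 scale (edgeR adjusted p = 0.64).

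The comparison of males with females, which the design allows because each group held both, called 10 members. F9, F2r and Vkorc1l1 were higher in the 6 males (3 of 31, where 4.3% of all genes were higher), and F2, F7, Habp2, Kng1, Apoh, Ggcx and Mcfd2 were lower (7 of 31, where 5.73% of all genes were lower), by edgeR with treatment in the fit. Of the 7 livers in which F9 reached 5 TPM, 5 were male, so its place in this count is a description as well. The median log2 difference of the 31 members was -0.22, beside 0.01 for all genes. The summed level of 8 hepatocyte markers was 84000 to 98800 CPM in females and 47200 to 80300 CPM in males. Taken singly they went both ways: 1 was called higher in males, 2 lower and 5 not called, with a median log2 difference of -0.15. Of other cell types, 3 of 5 tested stellate markers and 1 of 10 endothelial markers were called lower in males, and none of 7 Kupffer cell markers was, with medians of -0.46, -0.35 and -0.32 on the log2 scale. Without Control-ASO replicate 3, 5 of 5 stellate and 7 of 10 endothelial markers were called lower. The part of these markers in the members' differences was not tested. Without Control-ASO replicate 3, 3 members were higher in males (where 10.4% of all genes were higher) and 16 lower (where 11.5% of all genes were lower). The 9 added members were F10, F12, Fga, Fgb, Fgg, Kng2, Proz, Tfpi and Plg.

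F2r codes for the protease-activated receptor that thrombin cuts (chr13:95601803-95618487). Females lay between 21.9 and 27.2 CPM and males between 52.3 and 96.2 CPM, with no overlap in any group. The log2 difference was 1.48 ± 0.12 (edgeR adjusted p = 2.2e-05), a 2.79-fold higher level in males. The treatment difference was smaller, at 0.25 ± 0.15 (edgeR adjusted p = 0.31) against Control-ASO.

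F9 lay between 2.84 and 12.8 CPM in females and between 9.95 and 86.1 CPM in males. The ranges overlapped, yet within each group both males were above both females. The log2 difference was 2.38 ± 0.50, and without Control-ASO replicate 3 it was 1.78 ± 0.14, given with no test. Vkorc1l1 lay between 38.1 and 48.4 CPM in females and between 42.5 and 58.6 CPM in males, with a log2 difference of 0.25 ± 0.07 (edgeR adjusted p = 0.049), and that call held in 2 of 12 fits without 1 liver, those without Control-ASO replicate 3 or Upf3b-ASO replicate 4.

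On the lower side, F7 lay between 85.2 and 136 CPM in females and between 58 and 95.4 CPM in males. The log2 difference was -0.57 ± 0.06 (edgeR adjusted p = 0.00022). Ggcx lay between 48.3 and 76.7 CPM in females and between 38.2 and 61.1 CPM in males, with a log2 difference of -0.40 ± 0.08 (edgeR adjusted p = 0.010). Within each treatment group every male was below every female for both genes.

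Apoh lay between 1530 and 1960 CPM in females and between 1220 and 1510 CPM in males, without overlap (log2 difference -0.33 ± 0.08, edgeR adjusted p = 0.023). Kng1 lay between 2450 and 2970 CPM in females and between 1900 and 2350 CPM in males, also without overlap (log2 difference -0.33 ± 0.08, edgeR adjusted p = 0.019). The call of Apoh was lost without DPBS replicate 1, 3 or 4, Control-ASO replicate 2 or Upf3b-ASO replicate 1 or 4, and that of Kng1 without DPBS replicate 1, Control-ASO replicate 2 or Upf3b-ASO replicate 1. For fibrinogen, the DPBS females were at 4790 and 4690 CPM of Fgb and the DPBS males at 2730 and 2680 CPM, while the Upf3b-ASO females were at 3590 and 2930 CPM and the males at 3010 and 2940 CPM. With all livers the log2 difference of Fgb was 0.21 ± 0.48 (edgeR adjusted p = 0.82), and without Control-ASO replicate 3 it was -0.42 ± 0.11 (edgeR adjusted p = 0.023).

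**Figure D4:**
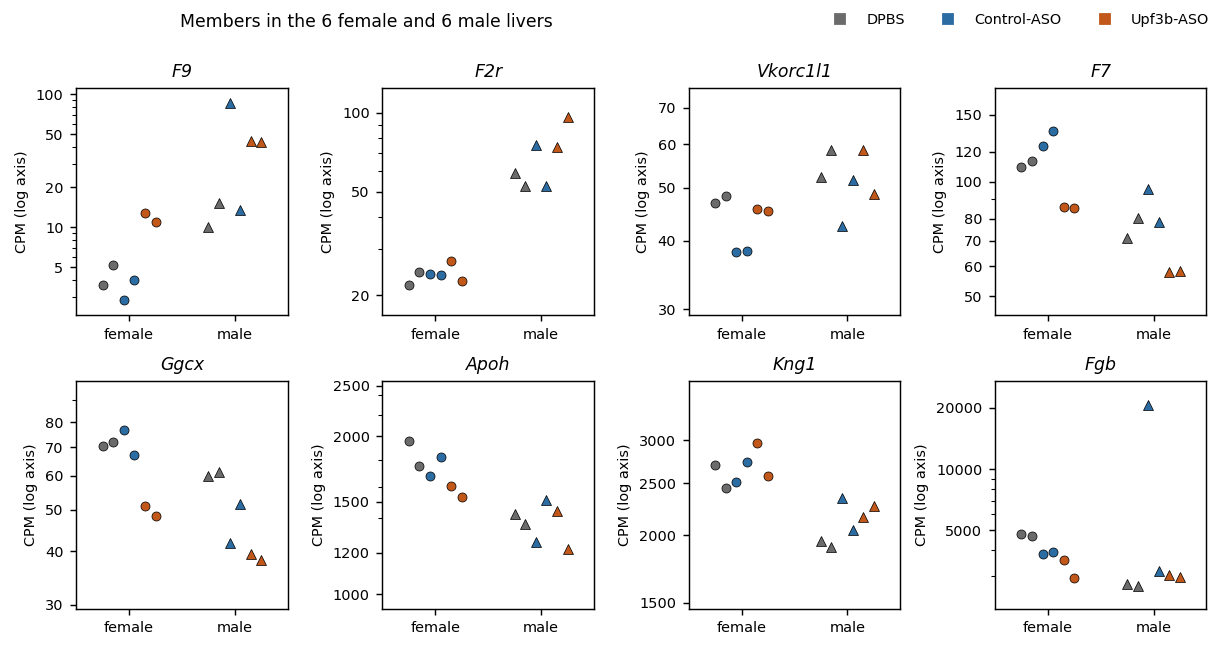
TMM-scaled CPM, on log axes, of 8 members in the 6 female (circles) and 6 male (triangles) livers, coloured by treatment. F2r separates the sexes completely (21.9 to 27.2 and 52.3 to 96.2 CPM), F7 and Ggcx are lower in males within each treatment, and Fgb is lower in all males except Control-ASO replicate 3 than in most females.

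The treatment effect was not shown to differ between the sexes for any member. By edgeR's interaction test 0 of 8846 genes passed at an adjusted p under 0.05 and 647 had an unadjusted p under 0.05, among them 1 member, F12. For F12 the male effect minus the female effect was -0.51 ± 0.19 on the log2 scale (edgeR adjusted p = 0.59).

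Many members are read as several transcripts: 15 of the 39 had 1 annotated transcript in the files and all together had 119. The share of a gene's TPM on each transcript was compared, without a test, for the 46 transcripts of 14 tested members with a mean share between 5% and 95%. In 6 of them (Kng1-201, Kng1-202, Kng1-203, F13b-201, F13b-202 and Vkorc1l1-202) the ranges of the Upf3b-ASO and the Control-ASO livers were apart, beside 4.19% of the 23805 transcripts compared over all genes. Shares of 1 gene sum to 100%, so its transcripts are not independent.

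In Kng1, whose total did not pass the test, 3 of 4 transcripts took different shares of the gene in the Upf3b-ASO livers. Kng1-202 took 64.8% of the gene after Upf3b-ASO (63.6 to 65.7%), 59.0% after Control-ASO (55.6 to 61.5%) and 56.9% after DPBS (55.7 to 58.3%). Kng1-201 took 7.69% (7.05 to 8.54%), 10.0% (8.58 to 11.7%) and 11.4% (10.8 to 12%) in that order. Kng1-203 took 21.6%, 24.9% and 25.8%. All 3 stood outside both reference groups in every Upf3b-ASO liver. The files list Kng1-202 and Kng1-203 with other lengths than the annotation used here, so they stand for an earlier model of these transcripts.

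In Vkorc1l1, the short transcript Vkorc1l1-202 took 22.7% in Upf3b-ASO livers (16.4 to 29.4%) and 7.75% in Control-ASO livers (3.09 to 12%), but DPBS livers (8.96 to 24.6%) overlapped the former. In F13b, the short noncoding F13b-202 took 3.71% after Upf3b-ASO, 7.08% after Control-ASO and 4.32% after DPBS, so Control-ASO was the group that stood apart. Both rest on few reads: 3.22 to 50.3 estimated counts per liver for Vkorc1l1-202 and 6.66 to 45.2 for F13b-202. Without Control-ASO replicate 3, 10 of the 46 did not overlap, beside 7.31% of the 23420 transcripts then compared over all genes. The added ones were Lman1-201, Lman1-202, F10-201 and Vkorc1l1-201.

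Transcripts that the annotation marks as targets of NMD were present in 5 members (Vwf, Habp2, Kng2, Vkorc1l1 and Ggcx). In none of them did that share separate the Upf3b-ASO from the Control-ASO livers upward. Habp2 had the largest, with 37.1% ± 4.31 of the gene after Upf3b-ASO, 39.5% ± 5.12 after Control-ASO and 37.4% ± 2.67 after DPBS (SD, n = 4). For Vkorc1l1 it was 18.1% ± 7.94, 27.6% ± 10.9 and 16.8% ± 8.41 in the same order. Ggcx-202 took 16.9, 14.0, 8.44 and 9.9% of Ggcx in Upf3b-ASO livers and 7.47, 7.82, 8.95 and 8.7% in Control-ASO livers. So 3 of 4 Upf3b-ASO livers were above every Control-ASO liver and replicate 3 overlapped. The DPBS livers were at 5.02, 7.65, 9.54 and 11.2%. Only the female Upf3b-ASO replicates 1 and 2 were above all of these, and the male replicates 3 and 4 lay within the DPBS range.

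**Figure D5:**
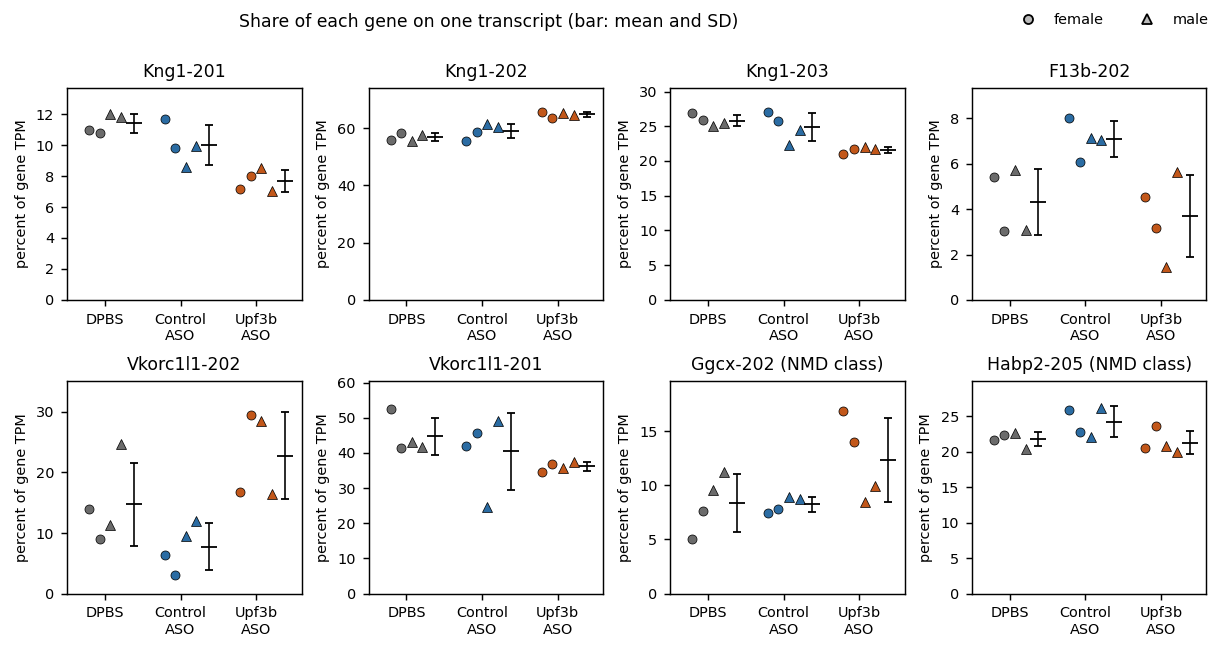
Share of a gene's TPM on 1 transcript in each liver, in percent (circles are females, triangles males, bars show the mean and SD of 4 livers; NMD class marks transcripts annotated as NMD targets). Kng1-202 is higher and Kng1-201 and Kng1-203 are lower in all Upf3b-ASO livers, while Ggcx-202 and Habp2-205 overlap between the groups.

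A wider list of 40 genes around coagulation (serpin inhibitors, receptors, plasminogen binding and helper genes) gave 30 tested genes. Of these, 2 rose and 5 fell against Control-ASO (where 4.34% and 5.95% of all genes did) and 1 rose and 3 fell against DPBS (where 3.57% and 5.36% did) by the edgeR test, with median log2 fold changes of -0.07 and 0. Called in both were Nqo1, Itih2 and Pcsk6. Nqo1, a quinone reductase that can act on vitamin K, was at 18.9, 29.3, 13.3 and 13.4 CPM in Upf3b-ASO livers and at 13.1, 13.1, 3.53 and 7.83 CPM in Control-ASO livers (log2 fold change 1.05 ± 0.22, edgeR adjusted p = 0.012). Itih2, a plasma protein that carries hyaluronan, was at 1240, 1090, 790 and 721 CPM and at 1480, 1500, 1190 and 1030 CPM (log2 fold change -0.46 ± 0.09, edgeR adjusted p = 0.010). Pcsk6, a convertase related to furin, was at 79.7, 78.2, 98.8 and 92.2 CPM and at 141, 144, 200 and 145 CPM, without overlap (log2 fold change -0.85 ± 0.10, edgeR adjusted p = 0.00082).

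Levels of marker genes of other cells stood beside these differences. In Upf3b-ASO and Control-ASO livers the summed level of 10 endothelial markers was 562 to 737 and 533 to 826 CPM, that of 7 stellate markers 268 to 504 and 395 to 596 CPM, and that of 8 Kupffer cell markers 404 to 551 and 317 to 785 CPM. By edgeR, no gene of the hepatocyte (8 tested), endothelial (10 tested), Kupffer (7 tested) or stellate (5 tested) lists was called between these groups with all livers. Without Control-ASO replicate 3, 1 of 8 hepatocyte, 5 of 10 endothelial and 1 of 5 stellate markers were called lower in Upf3b-ASO livers, where 13.5% of all genes were lower. The part of these markers in the differences of the members between treatments was not tested.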

How the data were processed

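Liver RNA of 12 mice was sequenced from libraries made with a TruSeq kit, and the labels give treatment and sex for each. The authors quantified reads on mouse cDNA (GRCm38.p4) with Salmon 0.7.2 (bcl2fastq 2.17.1.14 per the submitters' processing notes) and deposited, per transcript, estimated counts and TPM. Of 92468 transcripts, 98.1% were joined to GENCODE M21 by identifier, and estimated counts were summed per gene, rounded and tested with edgeR 4.0.16 (R 4.3.3; TMM, quasi-likelihood test, treatment and sex, all 12 livers, Benjamini-Hochberg over 8846 genes with at least 5 TPM in at least 4 livers; called at an adjusted p under 0.05). CPM are scaled with the same TMM factors. The scripts were tested on simulated counts. DESeq2 1.42.0, limma 3.58.1 on log2 TPM with a pseudocount of 1 or 0.1, voom with sample weights, other filters, size factors and designs, and leaving out each liver were the alternatives. DESeq2 and edgeR were run here.

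The members and gene lists were chosen with earlier results of these data known. All 39 members are accounted for; values per liver are given for members called in a comparison with Upf3b-ASO, for F9, for the largest difference per role and for the 3 largest called sex differences per direction. Wider-list genes are named where called in both Upf3b-ASO comparisons. Joined transcripts held 79.7% to 95.91% of TPM per liver. Replicate numbers share only sex: after group and sex means were removed, same-numbered livers correlated between -0.11 and 0.16. Duplicate libraries were looked for within each group only, and none were found there. The livers are separate mice, so p-values measure the spread between mice. Upf1-ASO livers of the study were not analysed here. Promoter windows were matched to members by symbol (31 of 39), and the ASO targets were searched with mismatches allowed.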

Additional observations from a re-analysis of the deposited data

Results flagged for a closer look

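In 14 of the 117 combinations of a member and a group (12%), 1 of the 4 livers lay so far from the others that its gap to the nearest one, divided by the range of the group, passed Dixon's critical value for 4 samples. Chance alone gives about 1 in 20 groups. Control-ASO replicate 3 gave 9 of them, each the highest liver of its group: the ratio was 0.873 for F9, 0.833 for F3, 0.954 for Fga, 0.956 for Fgb, 0.966 for Fgg, 0.981 for Thbd, 0.845 for Plat, 0.911 for Cpb2 and 0.895 for Furin. This liver also had the high sum of acute phase genes, and the part of that in the members' values was not tested.

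Upf3b-ASO replicate 1 was the highest of its group for Fgb (0.879, at 3590 CPM) and for Fgg (0.841, at 2520 CPM). Klkb1 was highest in DPBS replicate 4 (0.889, at 3.55 CPM) and Cpb2 in DPBS replicate 2 (0.843, at 327 CPM). Lman1 was lowest in Upf3b-ASO replicate 4 (0.864, at 268 CPM).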

How the results depend on the processing

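Counts below are all genes called, then members called. Against Control-ASO they were 910 and 6, against DPBS 790 and 5, between Control-ASO and DPBS 1 and 0, and between the sexes 887 and 10. DESeq2's Wald test gave 1584 and 11, 1274 and 6, 45 and 0, and 1359 and 11. Voom with sample quality weights gave 2815 and 14, 2791 and 13, 30 and 0, and 2025 and 18. A fit of the compared groups alone gave 363 and 3, 2478 and 9, and 0 and 0. Without the sex term the counts were 519 and 1, and 477 and 1. With no filter the members were 3, 3 and, between the sexes, 4, and with filterByExpr the last was 5. The transcript length offset gave 0 genes between Control-ASO and DPBS.

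On TPM the counts fell for treatment and rose for sex. Limma on log2(TPM + 1) gave 347 and 2, 325 and 2, 0 and 0, and 3062 and 23, and on log2(TPM + 0.1) it gave 334 and 2, 313 and 2, 0 and 0, and 2972 and 23. TPM rescaled to an equal sum, an alternative chosen after seeing the data, gave 613 and 4, 393 and 1, 0 and 0, and 2239 and 20. These scales also changed the split of directions. Against Control-ASO 384 genes were higher and 526 lower by edgeR, 180 and 167 on log2(TPM + 1), 166 and 168 on log2(TPM + 0.1), and 438 and 175 on rescaled TPM, and against DPBS the last split was 232 and 161 where edgeR had 316 and 474. Between the sexes edgeR had 380 higher and 507 lower in males, and the TPM scales 141 and 2921, 140 and 2832, and 149 and 2090 in the order above. The median of all genes for males against females moved to -0.29, -0.31 and -0.25 on these scales, beside -0.47, -0.48 and -0.43 for the members, so the sex calls on TPM are relative to that shift. The cause was not tested.

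With 1 liver left out, the counts ranged from 434 to 2168 and from 3 to 12 against Control-ASO, from 400 to 2540 and from 3 to 11 against DPBS, from 0 to 5 between Control-ASO and DPBS with no member called, and from 581 to 1939 and from 5 to 19 between the sexes. The highest of the Upf3b-ASO and sex counts were those without Control-ASO replicate 3, and the 5 members between the sexes came without DPBS replicate 1, Control-ASO replicate 2 or Upf3b-ASO replicate 1. The 6 of 46 member transcripts without overlap became 10 without Control-ASO replicate 3. Over the transcripts of all genes that share went from 4.19% to 7.31%.

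Livers with the same replicate number share a sex, and beyond it no pairing was seen. A replicate block in the fit gave counts of 699 and 4 against Control-ASO, where Kng2 (edgeR adjusted p = 0.080) and Ggcx (0.053) were no longer called, 606 and 5 against DPBS, and 0 and 0 between Control-ASO and DPBS. None of the 30 log2 fold changes of single genes followed under every alternative changed sign. Others did: against Control-ASO 9 members were above 0 and 22 below by edgeR but 14 and 17 on rescaled TPM, and without Control-ASO replicate 3 Fgb between the sexes went from 0.21 to -0.42 and F9 between Control-ASO and DPBS from 1.02 to -0.13. Depth limits the members below the filter and F9, which had as few as 52 estimated counts in a liver.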
